A study of Coturnix japonica with 12 samples.

Results

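The comparison described here is between right Müllerian ducts of female Japanese quail (Coturnix japonica) embryos that received ethynylestradiol (EE) in sesame oil and right ducts of embryos that received sesame oil alone. Its members are all expressed genes, taken as those with at least 1 FPKM (fragments counted, scaled to exon length and to the total of the sample) in at least 3 of the 12 samples of the series, which kept 12113 of the 16013 genes in the deposited table. It rests on 6 of the 12 samples, 3 right ducts in each exposure group, and the 6 left duct samples of the same groups were used for the shared estimate of spread and to show where the right duct differed. Embryos grew in surrogate eggshell culture, and both groups were exposed between embryonic days 3 and 12. The controls therefore also received the oil and the culture, and every embryo was genetically female by its label. Whether replicates stand for single embryos or for pools is not given by the labels. The p-values set differences against the spread between replicates, estimated over all 12 samples, and that spread may be partly technical.

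Müllerian ducts are the paired embryonic tubes from which the oviduct forms. In female birds only the left duct normally grows into an oviduct, while the right duct regresses under anti-Müllerian hormone (AMH) from the ovaries. Oestrogens act through nuclear receptors that switch genes on or off directly, and in the mature hen's oviduct they drive the growth of glands that secrete egg white and the formation of ciliated cells. EE is a synthetic oestrogen that is broken down more slowly than oestradiol, and embryonic exposure of birds to such compounds is known to leave a right duct in place. The question put by the design is how the exposure alters gene expression in the duct that would otherwise regress.

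Right oil ducts had 20693834, 21166087 and 20814970 counted reads in replicates 1, 2 and 3, and right EE ducts had 22400127, 20171505 and 19713927. Expression levels below are in CPM, counts set to a common library total with edgeR's TMM factor, and 3 values in a row are replicates 1, 2 and 3. Replicates of right oil ducts correlated with each other at 0.97 to 0.98 (Pearson's r of log2 CPM across genes), those of right EE ducts at 0.98, and samples of different exposure at 0.92 to 0.95. Several libraries carried transcripts that are abundant in other tissues. Haemoglobin transcripts took 6.11%, 12.7% and 7.46% of the reads of right oil ducts and 5.65%, 1.66% and 4.17% of right EE ducts. Skeletal muscle transcripts were high in oil replicate 1, and the liver transcripts ALB and FGG were high in EE replicate 1. Values without these libraries are given where a result rests on them. The duct and epithelial genes PAX2, WNT7A and EPCAM were expressed in all 6 samples, with values below.

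EE was followed by a broad change in right ducts. Of the 12113 genes, 4122 differed between the groups (34.0%), 2134 higher with EE (17.6%) and 1988 lower (16.4%), by edgeR's quasi-likelihood test at a Benjamini-Hochberg adjusted p under 0.05. A 2-fold or larger change was seen in 660 of the higher and 388 of the lower genes, an 8-fold or larger one in 69 and 10. All 3 samples of one group lay above all 3 of the other in 5580 genes (46.1%), 2878 with EE above and 2702 with EE below, and 3949 of the called genes were among them. The median log2 ratio of EE over oil across all tested genes was 0.0028. With scaling by library size alone that median was 0.172, and 75.8% of the 4592 calls were then higher with EE, against 51.8% of the calls with TMM factors, so small differences below are relative to the TMM scale. Counts of members of each gene list are to be read beside the background of 17.6% called higher and 16.4% called lower. Counts given with library size scaling have another background, 3479 genes called higher and 1113 called lower of the 12113. In bulk tissue fewer cells of a type and less RNA per cell cannot be told apart.

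**Figure D1:**
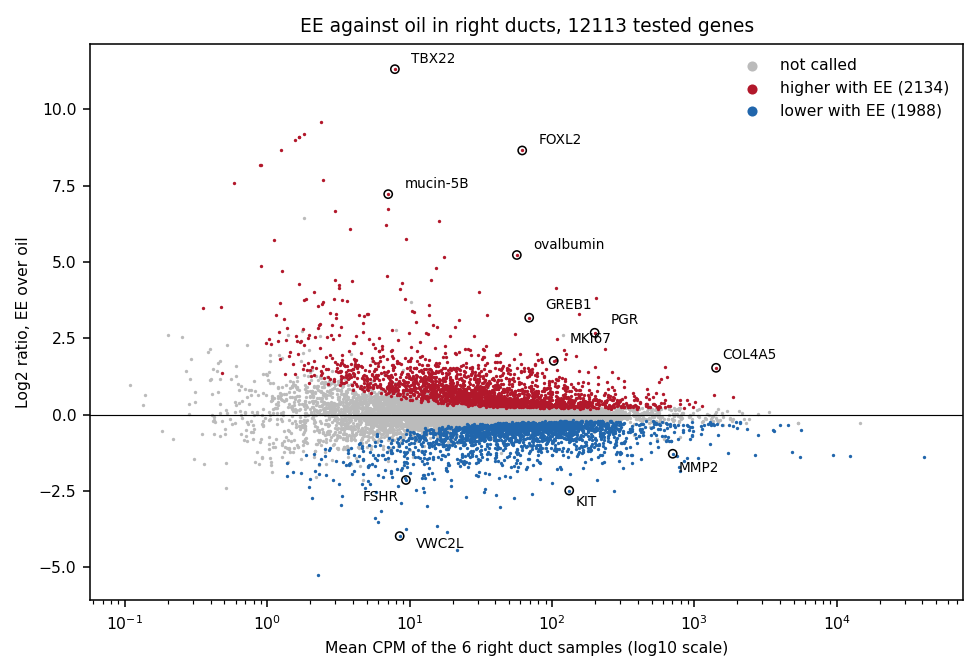
Log2 ratio of EE over oil in right ducts (vertical axis) against the mean level of each of the 12113 tested genes in right ducts (horizontal axis, mean CPM of the 6 samples on a log10 scale), with called genes in colour and 12 genes labelled. The 2134 higher and 1988 lower calls spread over the whole range of levels, and the largest rises, such as TBX22 and FOXL2, belong to genes near 0 in oil ducts.

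PGR and GREB1, classical targets of the oestrogen receptor, were higher in every EE sample. PGR, the progesterone receptor, stood at 50.4, 55.6 and 54.9 CPM in oil ducts and at 412, 381 and 242 in EE ducts. The EE samples lay several-fold above all oil samples, with a log2 ratio of 2.68 ± 0.18 (SE) and adjusted p = 6.97e-08. GREB1, a cofactor of the oestrogen receptor, was at 10.2, 20.5 and 10.7 CPM in oil and 118, 136 and 119 with EE, again without overlap (3.18 ± 0.22, adjusted p = 8.38e-08). ESR1, the gene of oestrogen receptor alpha itself, moved the other way, from 803, 855 and 914 to 491, 493 and 425 CPM (-0.87 ± 0.09, adjusted p = 4.81e-06). ESR2, the gene of oestrogen receptor beta, did not pass the filter on low values.

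Of 24 tested genes in the list of steroid receptors and oestrogen targets, 4 were higher and 11 lower with EE, with a median log2 ratio of -0.21. With library size scaling 6 were higher and 8 lower, with a median of -0.041. RERG, a small GTPase named for its oestrogen-dependent expression in human breast cells, fell from 54.9, 60.0 and 61.6 to 19.9, 20.8 and 21.3 CPM (-1.51 ± 0.10, adjusted p = 8.28e-08), and its 3 EE values were close together. STC1 and STC2, secreted stanniocalcins, had log2 ratios of -1.77 and -2.54. STC1 was at 96.0, 88.0 and 122 CPM in oil and 22.2, 25.6 and 41.9 with EE, and STC2 at 23.8, 12.0 and 28.9 and 3.88, 2.84 and 4.36, with no overlap in either gene.

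FOXL2, a transcription factor known for its role in ovarian granulosa cells, had the lowest p of all genes. Its levels were 0, 0.334 and 0.564 CPM in oil ducts and 138, 128 and 103 in EE ducts, a change from near absence to a moderate level in all 3 samples (8.66 ± 0.36, adjusted p = 1.4e-09). The gene lies on chromosome 9, 4453568 to 4455585, in the coordinates of the deposited table, which are those of the Coturnix japonica 2.1 assembly. TBX22, a T-box transcription factor known for palate formation in mammals, had no read in any right oil sample and 18.2, 14.4 and 14.6 CPM with EE. Set against a floor of 3 counts per oil library, it was at least 99.4-fold higher, and it lies on chromosome 4, 1464906 to 1470349. Both genes were also raised in left ducts, TBX22 to 16.1, 13.3 and 17.1 CPM and FOXL2 to 111, 111 and 118. For FOXL2 the difference of the effects between the sides did not pass the test (adjusted p = 0.356), and the TBX22 values of the sides overlapped.

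**Figure D2:**
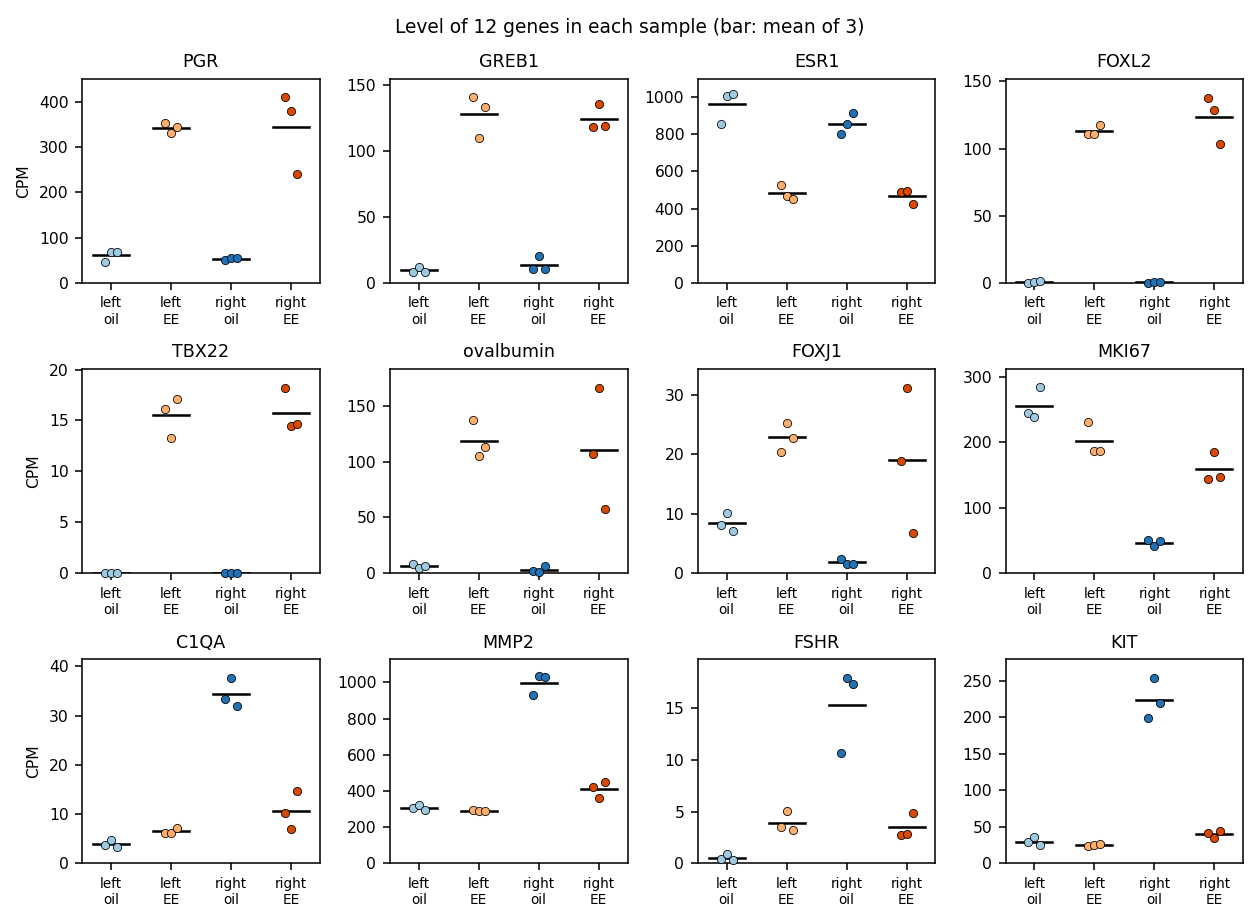
Level of 12 genes in each sample (points; vertical axes in CPM, linear and starting at 0), by group on the horizontal axis in the order left oil, left EE, right oil, right EE, with the mean of 3 samples as a bar. PGR, GREB1, FOXL2 and TBX22 were raised on both sides, MKI67 rose on the right from a low level in right oil ducts, and FSHR fell on the right while it rose on the left.

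Of 16 tested genes of gonads and gonadotropin signalling, FOXL2 included, 4 were higher and 5 lower. FSHR, the receptor of follicle-stimulating hormone, fell from 10.7, 17.9 and 17.4 to 2.71, 2.89 and 4.86 CPM (-2.14 ± 0.35, adjusted p = 0.00023). The luteinising hormone receptor (LOC107310840) was at 15.1, 18.4 and 22.1 CPM in oil and 7.08, 11.4 and 9.92 with EE, also without overlap (-0.97 ± 0.31, adjusted p = 0.0238), but its call was lost when oil replicate 3, EE replicate 1 or EE replicate 3 was left out (adjusted p = 0.0944, 0.0949 and 0.0503). FST, which encodes follistatin, an inhibitor of activin, fell about as far as FSHR, from 139, 109.9 and 149 to 27.5, 26.7 and 38.3 CPM (-2.10 ± 0.15). WT1, a transcription factor of the urogenital ridge, fell from 366, 392 and 431 to 159, 155 and 199.9 CPM (-1.21 ± 0.13), and FSTL3, a relative of follistatin, from 122, 126 and 111 to 65.5, 55.6 and 72.0 (-0.90 ± 0.15). GATA4, a transcription factor of gonadal somatic cells, rose from 7.11, 5.85 and 9.23 to 24.7, 22.8 and 20.6 CPM (1.62 ± 0.20). AMH stood at 6.23, 6.46 and 5.69 CPM in oil and 4.42, 6.35 and 5.75 with EE, and AMHR2, its specific receptor, at 3.81, 6.46 and 6.05 and 3.16, 1.33 and 6.10, with overlapping groups in both genes (adjusted p = 0.697 and 0.389).

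Genes of egg white and eggshell proteins rose, most of them from very low levels. Ovalbumin (LOC107309565), the main protein of egg white, on chromosome 2, 60943999 to 60949243, was at 2.06, 0.557 and 6.05 CPM in oil ducts and 107, 166 and 57.8 with EE (5.23 ± 0.49, adjusted p = 1.17e-06). Ovomucoid (LOC107320484), a protease inhibitor of egg white, was at 0.773, 0 and 0.359 CPM and 26.1, 57.5 and 12.0 (6.35 ± 0.70, adjusted p = 5.67e-06). No oil sample reached an EE sample in either gene, and EE replicate 3 had the lowest EE value in both. Ovoinhibitor (LOC107320451), another protease inhibitor, rose from 22.3, 35.9 and 28.9 to 363, 300.0 and 184 CPM (3.28 ± 0.23). Mucin-5B (LOC107314549), a gel-forming mucin, had 0.258, 0 and 0 CPM in oil and 17.0, 19.3 and 5.85 with EE, and ORM2, an acute-phase glycoprotein of the lipocalin family, 0, 0.167 and 0.205 and 18.3, 21.8 and 1.59. Riboflavin-binding protein (LOC107317492) rose from 0.412, 0.39 and 0.205 to 31.4, 17.7 and 6.30 CPM (5.76 ± 0.58), and the defensin gallinacin-12-like (LOC107312343) from 0.721, 1.56 and 1.49 to 25.8, 28.3 and 26.5 (4.42 ± 0.26). The defensin was about equal in the 3 EE samples, whereas mucin-5B, ORM2 and riboflavin-binding protein were lowest in EE replicate 3.

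Not all secretory genes rose. Of 26 egg white and eggshell genes in the table, 14 passed the filter, and 10 of these were higher and 1 lower with EE (median log2 ratio 2.03). Without EE replicate 1, the library with high liver transcripts, 7 were higher and 2 lower, and DESeq2 called 8 higher and 1 lower. Genes that are near 0 in oil pass the filter only through the samples where they are high, so the share is not one of all such genes. In the fit of all samples the lower gene was cystatin (LOC107310933), a cysteine protease inhibitor also found in egg white. It was at 1113, 1289 and 1170 CPM in oil and 394, 305 and 399 with EE (-1.70 ± 0.11, adjusted p = 6.97e-08). Ovocalyxin-32 (LOC107318369), an eggshell matrix protein, rose from 11.3, 15.8 and 10.3 to 50.4, 49.9 and 43.2 CPM (1.94 ± 0.15). In left ducts it fell, from a mean of 101 CPM in oil to 67.2 with EE (-0.58, adjusted p = 0.0108). The effects differed between the sides by 2.52 ± 0.21 (adjusted p = 5.36e-06). Of the 14 genes, 1 had a higher EE effect on the right by that test and 3 a lower one, beside 11.2% of all genes called. The call for TF, transferrin, rested on 1 library: its levels were 34.8, 42.7 and 58.0 CPM in oil and 516, 39.9 and 32.9 with EE, and its log2 ratio of 2.12 (adjusted p = 0.0318) became -0.31 without EE replicate 1. That library also held 595, 7.72 and 16.0 CPM of ALB (EE replicates 1, 2 and 3 in order), the albumin of liver, and the part of liver transcripts in the TF value was not tested. A lysozyme g gene (LOC107307139) did not pass the filter. An avidin-like gene (LOC107305801) had no reads in oil and 8.07, 0 and 1.93 CPM with EE, so EE replicate 2 did not differ from the oil samples.

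Genes of multiciliated cells, which move fluid and eggs along the oviduct, rose together. FOXJ1, the transcription factor that switches on motile cilia genes, went from 2.37, 1.56 and 1.49 to 18.9, 31.3 and 6.84 CPM (3.39 ± 0.42, adjusted p = 1.79e-05). Genes that act in the multiplication of centrioles before cilia form behaved likewise. DEUP1, a deuterosome protein, rose from 1.60, 1.23 and 2.87 to 19.9, 26.3 and 12.5 CPM (3.36 ± 0.32), CCNO, a cyclin, from 0.206, 0.111 and 0 to 9.20, 10.4 and 3.07 (6.08 ± 0.73), and CCDC78 from 0, 0 and 0.154 to 8.30, 7.39 and 2.23, a ratio of 115-fold (95% interval 39.1 to 560.0). Among parts of the cilium itself, ARMC4, SNTN and RSPH1 had no reads in oil ducts. ARMC4, needed to attach outer dynein arms, reached 7.08, 5.78 and 1.39 CPM with EE and was at least 30.0-fold higher. SNTN, a protein of the cilium tip, reached 5.01, 4.59 and 1.19 CPM (at least 22.7-fold) and RSPH1, a radial spoke protein, 3.56, 4.50 and 1.39 CPM (at least 19.9-fold). CFAP52, an axonemal protein, had 1 read in the oil samples together and 4.33, 8.67 and 1.69 CPM with EE, 281-fold (95% interval 50.0 to 11100) higher. In these genes EE replicate 3 held the lowest EE value, yet it lay above every oil sample.

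Of 46 multiciliated cell genes in the table, 33 passed the filter, and 27 were higher and 0 lower with EE, with a median log2 ratio of 1.34. Members near 0 in oil, such as ARMC4, passed the filter only through samples where they are high, so this is not a share of all such genes. Their summed level was 186, 179 and 205 CPM in oil and 417, 483 and 317 with EE, so EE replicate 3 stood between the oil samples and the other EE samples. The list also holds PLK4, the kinase that starts centriole duplication in dividing cells as well, which rose from 19.8, 21.7 and 26.7 to 44.6, 46.4 and 48.9 CPM (1.04 ± 0.11). Other genes of the largest rises, outside the list, were FAM183A (no reads in oil, 5.28, 2.46 and 2.28 CPM with EE, at least 21.1-fold), GCNT3, a glycosyltransferase of mucin synthesis (at least 11.3-fold), PPIL6 (11.1-fold or more) and CCDC166 (7.39-fold or more). The phytanoyl-CoA hydroxylase-interacting protein-like gene LOC107307635 was also at 0 in oil and at 2.71, 2.60 and 2.23 CPM with EE. The Rap-2a-like gene LOC107321967 had the highest level of these, 9.89, 15.5 and 9.08 CPM in oil and 269.8, 196 and 139 with EE (4.14 ± 0.29).

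Epithelial genes were higher too. Cadherin-1 (LOC107319509), the adhesion molecule of epithelial cells, rose from 129, 109.8 and 136 to 339, 317 and 231 CPM (1.24 ± 0.12, adjusted p = 2.08e-06), and EPCAM from 134, 142 and 142 to 296, 293 and 253 (1.01 ± 0.10). CLDN1, a claudin of tight junctions, went from 185, 169.5 and 175 to 314, 296 and 333 CPM (0.83 ± 0.08), and ESRP2, an epithelial splicing factor, from 34.8, 34.8 and 35.4 to 85.4, 88.6 and 66.9 (1.20 ± 0.13). In these 4 genes the groups were apart. Of 30 tested epithelial genes 18 were higher and 0 lower, with a median log2 ratio of 0.75. Basement membrane collagens, which epithelia and vessels lie on, gave some of the largest rises in level: COL4A5 went from 756, 721 and 706 to 2299, 2360 and 1676 CPM (1.54 ± 0.12) and COL4A6 from 369.9, 352 and 357 to 859.5, 901 and 682 (1.18 ± 0.12).

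Genes of dividing cells were higher almost throughout. MKI67, the Ki-67 marker, on chromosome 6, 29619936 to 29639985, was at 50.5, 40.7 and 49.0 CPM in oil ducts and 144, 185 and 147 with EE (1.76 ± 0.12, adjusted p = 8.88e-08). CCNA2, a cyclin of S phase and mitosis, rose from 29.6, 25.9 and 25.4 to 75.1, 78.8 and 70.1 CPM (1.47 ± 0.10), PRC1, which builds the central spindle, from 44.1, 42.1 and 44.8 to 103, 126 and 112 (1.38 ± 0.10), KIF4A, a chromosome-bound motor, from 21.2, 16.8 and 22.1 to 65.8, 75.4 and 57.8 (1.72 ± 0.12), and DLGAP5, a spindle assembly factor, from 25.0, 26.1 and 26.5 to 72.8, 81.3 and 64.2 (1.49 ± 0.10). The groups did not overlap in any of these 5 genes. Of 35 tested proliferation genes 34 were higher and 0 lower (median log2 ratio 1.38). CENPA, the centromeric histone, was the gene without a call, at 2.16, 0.111 and 1.03 CPM in oil and 1.62, 0.805 and 2.38 with EE (adjusted p = 0.616), and was named after its value was seen.

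Genes of DNA replication followed the same direction with smaller ratios. UHRF1, which maintains DNA methylation after replication, rose from 66.8, 67.7 and 65.5 to 145, 175 and 150.5 CPM (1.23 ± 0.09), RRM2, a subunit of ribonucleotide reductase, from 37.1, 40.4 and 41.4 to 84.3, 104 and 90.4 (1.23 ± 0.10), and POLE, the leading-strand polymerase, from 35.0, 29.2 and 31.7 to 72.8, 80.9 and 64.7 (1.19 ± 0.10). MCM5, part of the replicative helicase, and TK1, thymidine kinase, had log2 ratios of 1.03 ± 0.09 and 1.20 ± 0.11. Of 45 tested members 39 were higher and 1 lower, with a median of 0.82. The lower member was MCM10, a replication initiation factor, at 89.9, 196 and 133 CPM in oil and 64.1, 61.6 and 85.7 with EE (-0.99 ± 0.22, adjusted p = 0.003), named after its value was seen. Its highest level was in oil replicate 2, the library with the highest haemoglobin share, and it was no longer called with that share as a covariate (adjusted p = 0.167). The share was 8.76 ± 3.49% (SD, n = 3) in right oil and 3.83 ± 2.01% in right EE ducts. As a covariate it therefore overlaps with exposure, and the part of blood in the MCM10 values was not tested.

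The level reached in right EE ducts lay between right oil ducts and left ducts. Summed over the 35 proliferation genes, the level was 946 ± 70.6 CPM (SD, n = 3) in right oil ducts, 2455 ± 245 in right EE ducts, 3182 ± 280.0 in left EE ducts and 3724 ± 254 in left oil ducts. For the 45 replication genes the same sums were 2064 ± 26.6, 3237 ± 221, 3718 ± 232 and 4125 ± 85.9 CPM. The right EE samples thus stood above all right oil samples, and on average below the left ducts of either exposure. The effect of EE on these lists differed between the sides: 34 of 35 proliferation genes and 32 of 45 replication genes had a higher EE effect on the right than on the left by the interaction test, and none had a lower one. The background of that test is 1358 of 12113 genes (11.2%), 791 with the right effect above the left and 567 below. In left ducts the median log2 ratios of EE over oil were -0.20 and -0.11.

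**Figure D3:**
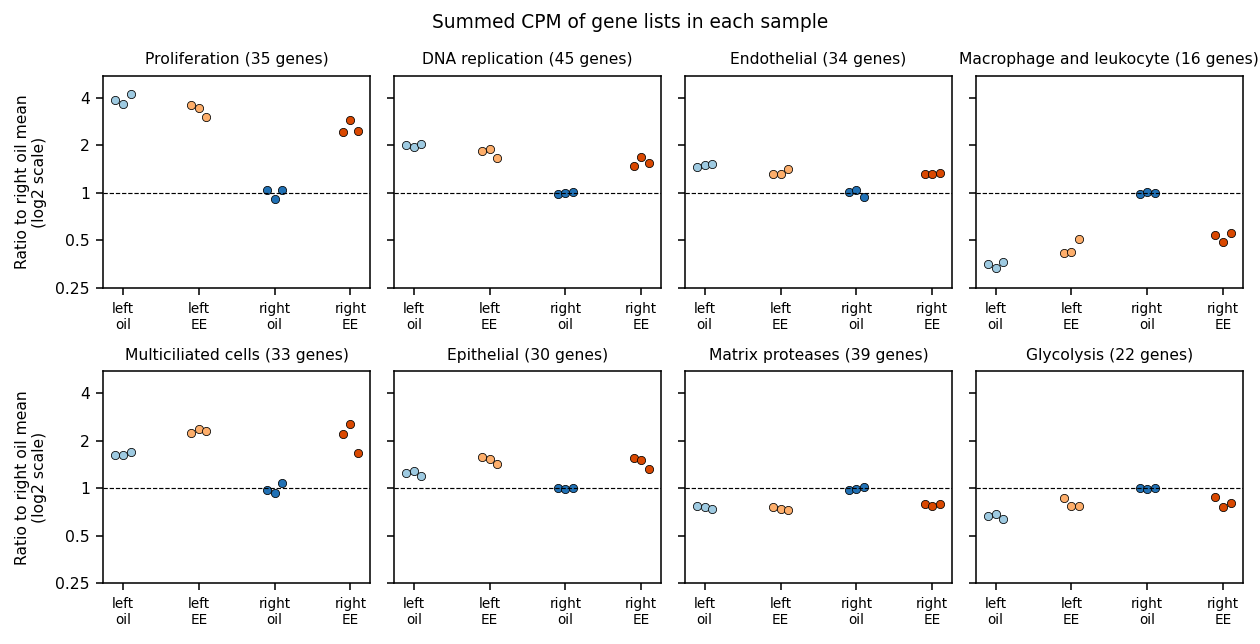
Summed CPM of 8 gene lists in each sample (points), divided by the mean of the right oil samples (vertical axis, ratio on a log2 scale), for left oil, left EE, right oil and right EE ducts on the horizontal axis. Proliferation, DNA replication and endothelial genes were higher in right EE than in right oil ducts, and macrophage genes were lower.

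Vessel genes were raised and macrophage genes lowered. SOX7, a transcription factor of endothelial cells, rose from 63.5, 65.3 and 66.6 to 147, 154 and 141 CPM (1.18 ± 0.08, adjusted p = 8.38e-08), and TIE1, an endothelial receptor kinase, from 38.0, 29.9 and 28.6 to 68.6, 75.8 and 76.7 (1.20 ± 0.11). PLVAP, a protein of fenestrated vessel walls, went from 12.8, 9.19 and 7.49 to 29.6, 29.2 and 26.8 CPM (1.54 ± 0.18). EMCN and MMRN2 had log2 ratios of 0.90 ± 0.10 and 0.78 ± 0.10, and of 34 tested endothelial genes 24 were higher and 1 lower (median 0.77). The lower gene was KDR, the main receptor for vascular endothelial growth factor, at 74.6, 143 and 78.9 CPM in oil and 47.6, 48.2 and 41.5 with EE (-1.11 ± 0.20, adjusted p = 0.00041), named after its value was seen. KDR was also highest in oil replicate 2. Over the alternative fits its log2 ratio ranged from -1.31 to -0.75, with a highest adjusted p of 0.0176. The summed endothelial level was 1259, 1296 and 1158 CPM in oil and 1626, 1632 and 1657 with EE, with no overlap.

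Of 31 macrophage and leukocyte genes in the table, 16 passed the filter, and 8 of these were lower with EE and 0 higher, with a median log2 ratio of -0.79. The list's summed level was highest in right oil ducts, so weak members may have passed the filter only through those samples. The counts are therefore not a share of all such genes. C1QA, a complement component made by macrophages, fell from 33.3, 37.7 and 32.0 to 10.3, 6.96 and 14.7 CPM (-1.69 ± 0.22, adjusted p = 3.21e-05). CSF1R, the receptor on which macrophages depend, fell from 44.2, 46.6 and 46.9 to 27.3, 26.2 and 25.4 CPM (-0.80 ± 0.12), LAPTM5, a lysosomal protein of blood cells, from 26.1, 34.1 and 34.0 to 13.4, 10.1 and 11.2 (-1.44 ± 0.17), and MPEG1, a pore-forming protein of macrophages, from 25.4, 22.0 and 20.3 to 11.3, 9.80 and 8.82 (-1.18 ± 0.21). LCP1, an actin-bundling protein of leukocytes, had a log2 ratio of -1.24 ± 0.20. All 5 were lower in each EE sample than in any oil sample. The list's summed level, 286, 297 and 292 CPM in oil and 159, 142 and 163 with EE, was lower still in left ducts, at 103 ± 4.77 CPM (SD, n = 3) with oil. Between the sides, 7 of the 16 genes had a lower EE effect on the right.

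Red blood cell transcripts differed by amounts that 1 sample in each group decided. Haemoglobin alpha-A (LOC107320982) was at 38770, 89800 and 47800 CPM in oil and 33930, 9551 and 24230 with EE, and haemoglobin beta (LOC107308585) at 8548, 20540 and 11340 and 7173, 2365 and 6492. The highest EE sample came close to the lowest oil sample in both. Of 19 tested erythroid genes 8 were lower with EE (median log2 ratio -1.19), but none was when oil replicate 2 or EE replicate 2 was left out, and 14 were when oil replicate 1 and EE replicate 1 (with left oil replicate 1) were left out. The haemoglobin share was on average higher in right oil than in right EE ducts, so as a covariate it overlaps with exposure. With the log2 haemoglobin share as a covariate, 2497 genes were called in place of 4122, and 2364 of them were among the 4122. Over all 12113 genes that fit called 1335 higher and 1162 lower. In that fit 34 proliferation, 32 replication, 20 endothelial, 21 multiciliated and 18 epithelial genes were higher, and 7 macrophage genes were lower. Of lists described below, lower genes then numbered 13 for lysosome, 11 for proteases, 10 for glycolysis, 5 for immediate early and 5 for ribosomal genes. Higher genes numbered 1 for cholesterol synthesis and 1 for oxidative phosphorylation.

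Smooth muscle genes were higher by small margins. DES, desmin, went from 258, 159.6 and 200.1 to 383, 489.7 and 443 CPM (1.09 ± 0.16, adjusted p = 6.47e-05). MYH11, the myosin heavy chain of smooth muscle, was at 503, 249 and 339 CPM in oil and 619, 1056 and 639 with EE (1.09 ± 0.23, adjusted p = 0.00203), and TAGLN, an actin-binding protein, at 514, 332 and 387 and 531, 799.8 and 669 (0.70 ± 0.15). MYL9 and TPM1, a light chain and a tropomyosin, had ratios of 0.80 ± 0.15 and 0.73 ± 0.16. Oil replicate 1 was the highest oil sample and EE replicate 1 the lowest EE sample in DES, MYH11 and TAGLN, and in TAGLN those samples were close. Of 23 tested members 14 were higher and 0 lower (median 0.66). The counts of higher and lower members were 9 and 2 without oil replicate 2, 8 and 1 without EE replicate 2, and 3 and 3 with the haemoglobin covariate, so no direction held for the list under that covariate. TAGLN and TPM1 were no longer called with that covariate (adjusted p = 0.0932 and 0.0821).

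**Figure D4:**
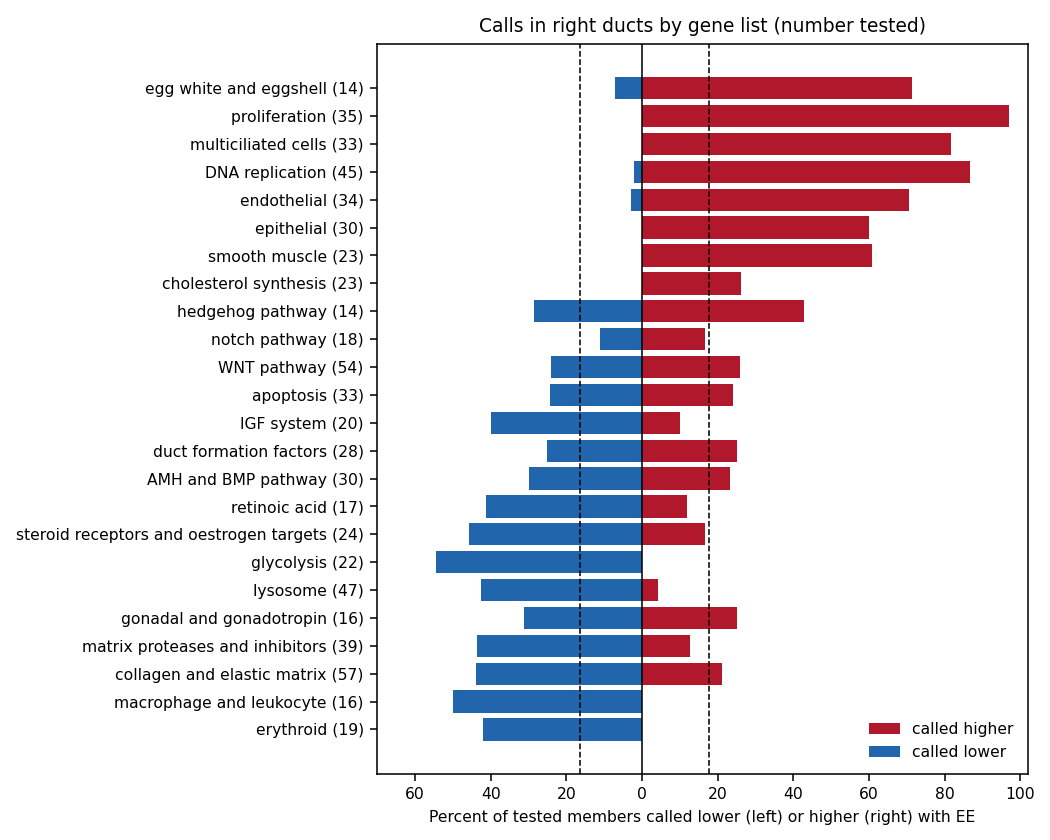
Share of the tested members of 24 gene lists called higher (to the right) or lower (to the left) with EE in right ducts (horizontal axis, percent of tested members), with the number tested beside each list and lists in the order of their median log2 ratio. The dashed lines mark the background of 17.6% higher and 16.4% lower among all tested genes, and proliferation (34 of 35 genes) and DNA replication (39 of 45) lie far past it on the higher side.

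In the extracellular matrix, MMP2, several ADAMTS proteases and the main fibrillar collagens were lower, while the collagens COL4A5 and COL4A6 described above were higher. MMP2, a gelatinase, fell from 929, 1036 and 1028 to 421, 360.2 and 452 CPM (-1.28 ± 0.09, adjusted p = 8.18e-08). ADAMTS9 fell from 450.3, 469.7 and 511 to 230.4, 243 and 218 CPM (-1.05 ± 0.08), and ADAMTS3, which trims procollagens, and ADAMTS5, which cuts aggrecan and versican, with log2 ratios of -1.01 ± 0.09 and -0.82 ± 0.09. ADAMTS10, a protease bound to fibrillin fibres, rose from 24.7, 29.1 and 32.4 to 60.9, 60.6 and 53.4 CPM (1.02 ± 0.11). Of 39 tested proteases and inhibitors 17 were lower and 5 higher, with a median of -0.30; with library size scaling these were 11 and 9. For 11 of them the EE effect was lower on the right than on the left, and for 2 it was higher.

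Among collagens the large drops in level were those of the main fibres. COL3A1 went from 7521, 5863 and 6379 to 4622, 4808 and 4407 CPM (-0.51 ± 0.11), COL1A1 from 4907, 4469 and 3608 to 3212, 3093 and 2581 (-0.55 ± 0.14) and COL1A2 from 4799, 3945 and 3736 to 3188, 3065 and 2570 (-0.50 ± 0.12). COL5A1, which starts collagen fibrils, fell further, from 2478, 2437 and 2391 to 1010, 1086 and 977 CPM (-1.25 ± 0.08, adjusted p = 4.49e-08). COL11A1, of the same fibril-starting family, went from 356, 361 and 321 to 109, 128 and 117 CPM (-1.55 ± 0.08, adjusted p = 6.9e-09). COL13A1, a transmembrane collagen, and COL21A1 had log2 ratios of -1.94 ± 0.14 and -1.75 ± 0.14. Each of these genes had all EE samples below all oil samples. Of 57 tested collagen and elastic fibre genes 25 were lower and 12 higher, or 21 and 17 with library size scaling. LTBP1, which stores TGF-beta in the matrix, was among the higher ones, at 334, 321 and 295 CPM in oil and 1011, 1157 and 642 with EE (1.57 ± 0.16).

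Lysosomal and cell death genes were mostly lower or mixed. Of 47 tested lysosome genes 20 were lower and 2 higher with EE (median log2 ratio -0.26), or 11 and 2 with library size scaling. CTSA, cathepsin A, fell from 158, 160.0 and 155 to 100.5, 82.9 and 90.5 CPM (-0.79 ± 0.09, adjusted p = 5.44e-06), PSAP, prosaposin, from 1028, 1085 and 1127 to 807, 709 and 748 (-0.52 ± 0.08), and GM2A and CTSC with log2 ratios of -0.78 ± 0.12 and -0.47 ± 0.08. For 15 of the 47 genes the EE effect was lower on the right than on the left. The summed macrophage level, given above, fell in the same samples, and its part in the lysosomal difference was not tested. BMF, a member of the BCL2 family that promotes cell death, was among the 8 genes with the lowest p and fell from 355, 310.2 and 349 to 83.3, 69.2 and 76.3 CPM (-2.15 ± 0.11, adjusted p = 7.12e-09). BIRC2, an inhibitor of apoptosis, also fell (150.0, 177 and 154 to 97.5, 87.3 and 109 CPM, -0.71 ± 0.10), while CASP6, an executioner caspase, and BAK1, a pore-forming member of the BCL2 family, rose by 0.71 ± 0.09 and 0.48 ± 0.08. The apoptosis list was split, with 8 higher and 8 lower of 33 tested; with library size scaling these were 9 and 3, and without oil replicate 2 or EE replicate 2 the lower genes were 5.

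Bone morphogenetic proteins (BMPs) and AMH belong to 1 family of ligands that signal through shared receptors. BMP5 fell from 116, 117 and 141 to 17.6, 20.2 and 23.9 CPM (-2.60 ± 0.15, adjusted p = 1.32e-08) and BMP6 from 29.7, 32.2 and 23.7 to 7.53, 7.82 and 8.73 (-1.83 ± 0.21). GDF6, another ligand, rose from 0.515, 0.111 and 0.308 to 1.99, 2.08 and 2.28 CPM (2.73 ± 0.49, adjusted p = 0.000464). BMPR1B, a type I receptor, rose from 8.19, 10.2 and 11.4 to 46.7, 48.3 and 35.2 CPM (2.12 ± 0.19). BAMBI, a decoy receptor, fell from 48.7, 45.2 and 44.7 to 21.2, 19.1 and 23.0 CPM (-1.13 ± 0.17), and of the ID genes, which are known BMP targets, ID4 fell from 247, 264 and 268 to 182, 166 and 187 (-0.54 ± 0.08) and ID1 rose from 34.9, 41.3 and 27.0 to 54.9, 59.9 and 59.4 CPM (0.76 ± 0.14). ID2 and ID3 were not called. Of 30 tested members 7 were higher and 9 lower.

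In the WNT pathway ligands and receptors moved in both directions. WNT7A, a ligand of the duct epithelium that patterns the reproductive tract in mice, rose from 66.4, 59.8 and 66.0 to 105, 128 and 113 CPM (0.85 ± 0.09, adjusted p = 2.29e-06). WNT4, which is required for duct formation in mice, fell from 235, 248 and 291 to 115, 88.4 and 146 CPM (-1.15 ± 0.14, adjusted p = 1.35e-05), and WNT11 from 74.9, 93.1 and 76.9 to 23.1, 16.1 and 19.7 (-2.05 ± 0.14). All 3 ligands had separate groups. On the receptor side FZD9 rose from 22.5, 23.1 and 20.9 to 83.2, 58.7 and 61.2 CPM (1.61 ± 0.15) and FZD10 from 15.4, 15.9 and 19.4 to 41.6, 43.3 and 33.1 (1.22 ± 0.13). LGR5, a receptor of R-spondins, rose from 356, 379.5 and 408 to 849, 969 and 901 CPM (1.25 ± 0.10). Of 54 tested members 14 were higher and 13 lower, with a median of 0.01. Among transcription factors of duct formation the homeobox factor MSX2 rose from 69.1, 75.6 and 79.9 to 111, 135 and 112 CPM (0.67 ± 0.09), PAX2 rose from 59.1, 70.6 and 66.3 to 128, 138 and 93.6 (0.87 ± 0.13), and MSX1, another homeobox factor, fell from 5.72, 7.30 and 12.1 to 0.586, 1.61 and 3.42 (-2.17 ± 0.48). The list of duct formation genes is not one of transcription factors alone. It also holds VANGL2 and the ligands WNT4, WNT5A, WNT7A and WNT9B, which are counted in the WNT list as well. It had 7 higher and 7 lower of 28.

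Hedgehog signalling had a ligand and a target gene higher. IHH, Indian hedgehog, rose from 1.70, 2.45 and 1.44 to 8.71, 10.1 and 8.82 CPM (2.31 ± 0.33, adjusted p = 6.6e-05). GLI1, a transcription factor and target of the pathway, rose from 7.47, 8.52 and 7.08 to 27.9, 31.0 and 25.9 CPM (1.88 ± 0.15, adjusted p = 2.86e-07). SUFU, an inhibitor, also rose (0.59 ± 0.09), and BOC, a co-receptor, fell (-0.43 ± 0.08). The list had 6 higher and 4 lower of 14 tested. GLI2 and GLI3 were also among the lower genes (-0.72 ± 0.14 and -0.42 ± 0.13), and PTCH1 was not called (0.24 ± 0.15, adjusted p = 0.239). In the Notch list 3 of 18 were higher, LFNG, which modifies Notch receptors, among them (1.09 ± 0.12), and 2 were lower, one of them DLL4, a ligand of growing vessels (54.1, 44.6 and 60.2 to 30.0, 27.4 and 32.8 CPM, -0.82 ± 0.14).

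Genes of retinoic acid metabolism and of the insulin-like growth factor (IGF) system were mostly lower among those called. ALDH1A3, which makes retinoic acid, fell from 571, 639 and 649 to 216, 220.3 and 249 CPM (-1.44 ± 0.08, adjusted p = 1.33e-08), DHRS3, which turns retinal back into retinol, from 320.2, 311 and 335 to 151, 141 and 165 (-1.08 ± 0.08), and RDH10, which makes retinal, from 223, 235 and 224 to 148, 138 and 157 (-0.62 ± 0.10). BCO2, a carotenoid-cleaving enzyme, was nearly absent in oil at 0.67, 1.06 and 0.821 CPM and reached 26.7, 15.5 and 8.18 with EE (4.30 ± 0.45). STRA6, a receptor for retinol uptake, rose from 72.4, 57.1 and 67.6 to 129, 131 and 91.8 CPM (0.83 ± 0.13). Of 17 tested members 2 were higher and 7 lower, and in the IGF list 2 and 8 of 20. With library size scaling 3 were higher and 6 lower in each list. STC1 and STC2, described above, were among the lower genes of the IGF list. With IGFBP4 they also belong to the list of steroid receptors and oestrogen targets. The binding proteins IGFBP4 and IGFBP7 had log2 ratios of -0.52 ± 0.10 and -0.52 ± 0.10, and IGF2BP1, an RNA-binding protein of growing embryonic tissue, one of 0.82 ± 0.13.

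Glucose uptake and glycolysis genes were lower. A facilitated glucose transporter (LOC107318287) went from 48.0, 66.7 and 58.2 to 23.2, 17.8 and 24.1 CPM (-1.41 ± 0.15, adjusted p = 4.7e-06) and SLC2A1, the GLUT1 transporter, from 100.5, 111 and 106 to 73.1, 73.7 and 71.7 (-0.54 ± 0.11). Lactate dehydrogenase A (LOC107314688) fell from 747, 916 and 769.7 to 539, 422 and 515 CPM (-0.72 ± 0.13), GPI, a glycolytic isomerase, from 261, 290.3 and 267 to 183, 179 and 171 (-0.62 ± 0.09), and SLC16A3, a lactate exporter, from 61.6, 89.5 and 63.9 to 38.1, 22.1 and 30.8 (-1.24 ± 0.19). No EE sample reached an oil sample in these genes. Of 22 tested members 12 were lower and 0 higher, and 11 had a lower EE effect on the right than on the left. With library size scaling 8 were lower, beside 1113 of all 12113 genes.

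Other metabolic and housekeeping lists changed by smaller amounts, or had shares of calls near or below the background. Of 21 immediate early genes, which respond quickly to growth factors and stress, 8 were lower and 2 higher, with EGR1 at -1.11 ± 0.14, JUN at -0.83 ± 0.09 and BTG2 at -0.76 ± 0.08. With library size scaling 8 were lower and 7 higher, and without oil replicate 3 none was higher. Of 72 ribosomal protein genes 22 were lower and 0 higher (median -0.17); with library size scaling 1 was lower and 6 were higher, so no direction is given for them. Without oil replicate 1, oil replicate 2 or EE replicate 2 the count of lower ribosomal genes was 14, 13 and 10. Of 23 cholesterol synthesis genes 6 were higher and 0 lower, NSDHL with the lowest p (0.60 ± 0.13), but 3 were higher without oil replicate 2 and 1 without EE replicate 2. Of 21 interferon response genes 5 were higher and 4 lower, and of 67 genes of oxidative phosphorylation 8 and 3. Lower interferon genes numbered 1 without oil replicate 1, EE replicate 1 or EE replicate 2, and 2 without oil replicate 2, left oil replicate 3 or left EE replicate 1. Genes of oxidative phosphorylation were 5 higher and 7 lower without oil replicate 1, 4 and 1 without oil replicate 2, 3 and 2 without EE replicate 1, 6 and 1 without EE replicate 2, and 5 and 3 without EE replicate 3. The 67 genes of the secretory pathway had 7 higher and 5 lower (10.4% and 7.46%), also below the background. With library size scaling these were 23 and 3. Higher secretory genes were 4 without oil replicate 1 and 3 without oil replicate 2 or EE replicate 2. That scaling also gave 18 higher genes of oxidative phosphorylation.

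Several of the most clearly changed genes stood outside these lists. KIT, the receptor of stem cell factor, fell from 199, 254 and 219.5 to 41.1, 34.6 and 44.4 CPM (-2.49 ± 0.13, adjusted p = 8.43e-09), and TRIM2, a ubiquitin ligase, from 442, 429 and 434 to 158, 153 and 144 (-1.52 ± 0.08, adjusted p = 7.12e-09). EPHB1, a receptor of ephrins, rose from 97.2, 97.2 and 109.8 to 288, 296 and 313 CPM (1.56 ± 0.08, adjusted p = 6.9e-09). TNFSF13B, a cytokine of B cell survival, rose from 27.8, 39.9 and 31.6 to 188, 196 and 170.1 CPM (2.48 ± 0.13, adjusted p = 6.9e-09) and KCNK1, a potassium channel, from 34.0, 38.4 and 37.6 to 130.3, 151 and 113 (1.84 ± 0.10). In these genes the replicates of a group differed little and the groups were far apart. NPM1, a nucleolar protein, and YBX1, an RNA-binding protein, were among the largest rises in level, from 1663, 1404 and 1410 to 2190, 2476 and 2060 CPM and from 1047, 994 and 1187 to 1574, 1590 and 1850. FTH1, the ferritin heavy chain, and TPT1 were among the largest falls, from 5328, 9571 and 5482 to 3716, 1817 and 3127 CPM and from 3084, 4333 and 2931 to 2348, 1855 and 2270. Both falling genes were highest in oil replicate 2 and lowest in EE replicate 2, as haemoglobin was, and its part in them was not tested.

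Among the lowest ratios was that of CACNG1, a muscle gene (-5.26 ± 1.25), with levels given below. VWC2L, a secreted protein with a von Willebrand factor C domain, went from 16.0, 14.3 and 17.7 to 0.767, 1.33 and 0.942 CPM (-3.98 ± 0.34, adjusted p = 3.96e-07). CEMIP, which degrades hyaluronan, went from 40.5, 34.3 and 28.4 to 1.08, 3.17 and 3.02 CPM (-3.83 ± 0.30, adjusted p = 2.29e-07), and RBFOX1, a splicing regulator, from 86.4, 67.8 and 76.8 to 5.82, 8.95 and 13.7 (-3.02 ± 0.24, adjusted p = 2.22e-07). NXPH1, a ligand of neurexins, and LRRTM1, a synaptic adhesion protein, had ratios of -3.52 ± 0.38 and -3.38 ± 0.48. ANO4, KCTD4, NEU4, a sialidase, TESC, a calcium-binding protein, and AQP5, a water channel, completed the 12 lowest ratios at -3.16, -2.98, -2.89, -2.72 and -2.72, together with the muscle genes CACNG1 and TNNI1. These muscle genes were at 9.73, 1.50 and 2.10 and 14.1, 1.50 and 2.05 CPM in oil and at 0, 0.332 and 0 and 0.316, 1.09 and 0.843 with EE.

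Markers of tissues next to the duct bear on some of these values. Of 32 skeletal muscle genes 13 passed the filter, and 7 were lower and 1 higher with EE, with a summed level of 396, 73.8 and 75.4 CPM in oil and 92.1, 116 and 89.9 with EE. Without oil replicate 1, 1 of the 13 was lower and 3 were higher. TNNI1 was no longer called without that replicate (log2 ratio -1.25, adjusted p = 0.237), and CACNG1 still was. The call of CACNG1 was lost with DESeq2 (adjusted p = 0.151). It was also lost with left oil 1, right oil 1 and right EE 1 left out together (log2 ratio -3.38, adjusted p = 0.0821). Of 13 tested neural genes 4 were lower and 0 higher, with a summed level of 214, 233 and 246 CPM in oil and 139.9, 134 and 180.1 with EE; CHGB, a protein of secretory granules, fell from 36.3, 65.8 and 68.3 to 13.3, 14.4 and 16.9 CPM (-1.93 ± 0.20). Of 9 germ cell genes listed, only PIWIL1, TDRD9 and TDRD1 passed the filter. These 3 rose, from a summed 4.48, 5.35 and 5.38 CPM to 23.0, 23.0 and 16.1. Their log2 ratios were 4.25 ± 0.78, 1.70 ± 0.31 and 1.49 ± 0.39, and 2 were called with the haemoglobin covariate. PIWIL1, at 0, 0.334 and 0.615 CPM in oil, may have passed the filter only through samples where it is high. The rise is therefore not one of all such genes. Few kidney, liver and adrenal or gonadal steroid genes passed the filter, 3 in each list. Of the liver genes ALB was at 1.96, 6.35 and 92.7 CPM in oil and FGG at 1.08, 1.17 and 3.85, with 595, 7.72 and 16.0 and 40.1, 0.616 and 1.44 with EE, so no direction held over the samples (adjusted p = 0.155 and 0.0679). APOA1, an apolipoprotein, fell from 1103, 1781 and 1723 to 788, 430.2 and 508 CPM (-1.42 ± 0.20), with no overlap.

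A comparison with the left duct shows where the right duct's response differed. With the same fit 1605 genes passed the threshold in left ducts, 823 with EE above oil and 782 with EE below. The same direction was called on both sides for 566 higher and 448 lower genes, which is 24.6% of the right calls and 63.2% of the left calls. Opposite calls were rare, with 51 genes raised on the right but lowered on the left and 37 the reverse. The median size of the log2 ratio over all genes was 0.26 on the right, against 0.17 on the left. The interaction test, which asks whether the effect itself differed, called 1358 genes (11.2%), and 1160 of these were among the 4122 called on the right (28.1%). The right and the left effect were computed on different samples in 1 fit.

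Genes with the largest differences between the sides included both gonadotropin receptors. FSHR fell on the right, as described, but rose on the left from 0.466, 0.874 and 0.288 to 3.54, 5.06 and 3.21 CPM, and the effects differed by a log2 ratio of -4.91 ± 0.54 (adjusted p = 2.78e-05). The luteinising hormone receptor (LOC107310840) likewise went from 1.16, 0.708 and 0.504 to 5.20, 8.46 and 13.5 CPM on the left, a difference of -4.44 ± 0.50 (adjusted p = 3.05e-05). ZP1, a protein of the egg coat, was at 13.9, 20.6 and 16.4 CPM in right oil and 14.1, 18.4 and 15.0 in right EE ducts, but went from 1.21, 1.42 and 1.44 to 10.8, 14.9 and 18.8 on the left (-3.55 ± 0.33, adjusted p = 7.66e-06). In these 3 genes left oil ducts had the lowest levels of the 4 groups.

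Other genes had a higher EE effect on the right. TCF24, a transcription factor, went from 1.29, 0.835 and 0.667 to 31.1, 25.0 and 45.1 CPM on the right side, and from 6.42, 20.4 and 14.7 to 29.5, 33.0 and 39.5 on the left, where it was already present in oil (3.87 ± 0.52, adjusted p = 0.000142). GDF6 went from 6.75, 9.12 and 5.26 to 2.06, 3.75 and 2.84 CPM on the left, against its rise on the right (4.02 ± 0.62, adjusted p = 0.000522). CALB2, the calcium-binding protein calretinin, had 3 reads in right oil ducts and 1.58, 1.61 and 2.03 CPM in right EE ducts, 32.9-fold (95% interval 11.0 to 162) higher, and 1.54, 0.874 and 0.432 and 0.224, 1.37 and 0.731 CPM in left oil and left EE ducts (adjusted p of the difference = 0.00836, or 0.0734 with left oil 1, right oil 1 and right EE 1 left out together). DMRT2, a transcription factor of the doublesex family, was at 0, 1.23 and 0.513 and 2.44, 1.71 and 5.75 CPM on the right (difference 3.70 ± 0.98, adjusted p = 0.0225), and its call on the right was lost without EE replicate 3 (adjusted p = 0.0797). The difference for DMRT2 was lost without left oil replicate 3, right oil replicate 3, left EE replicate 2 or 3, or right EE replicate 3 (adjusted p 0.0511 to 0.065), and that for FAM183A without left oil replicate 2 (0.0661). CFAP52 and FAM183A had adjusted p = 0.00729 and 0.0211 for the difference, and both had reads in left oil ducts, at 1.49, 0.833 and 0.721 and 0.186, 0.874 and 0.144 CPM.

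A lower EE effect on the right was also found for VWC2L, LRRTM1 and KIT. VWC2L was at 1.68, 1.83 and 0.937 CPM in left oil and 1.26, 1.55 and 1.38 in left EE ducts (difference -3.86 ± 0.46, adjusted p = 5.97e-05), and LRRTM1 at 2.23, 0.666 and 0.937 and 1.57, 0.596 and 1.62 (-3.37 ± 0.67, adjusted p = 0.00344). KIT had 28.6, 35.6 and 25.1 CPM in left oil and 23.9, 24.5 and 26.1 in left EE ducts, with a difference of -2.22 ± 0.18 (adjusted p = 5.36e-06). On the right, LRRTM1 stood at 9.43, 11.2 and 10.7 CPM in oil and 0.857, 0.805 and 1.34 with EE. In these 3 genes the right oil ducts stood high. Right EE ducts had levels close to those of left ducts for VWC2L and LRRTM1. For KIT the right EE samples, at 41.1, 34.6 and 44.4 CPM, lay above every left EE sample. MMP2 was at 308 ± 14.4 CPM (SD, n = 3) in left oil and 292 ± 0.706 in left EE ducts, and its effect differed by -1.20 ± 0.12 (adjusted p = 1.48e-05). MKI67 showed the opposite order, at 256 ± 24.9 CPM in left oil and 201 ± 25.4 in left EE ducts, with a difference of 2.11 ± 0.17 (adjusted p = 5.36e-06). CACNG1 and TNNI2, muscle genes, were also among the 6 lowest differences (adjusted p = 0.0341 and 0.0372), and TNNI2 was at 13.6, 1.61 and 2.15 CPM in right oil ducts, highest in replicate 1. Both differences were fragile: that of CACNG1 was lost in 7 of the 12 fits that left out 1 library (any left oil sample, right oil replicate 1, left EE replicate 3, right EE replicate 1 or 3), with DESeq2 (adjusted p = 0.158) and with the replicate number as a block (0.0755), and that of TNNI2 in 8 (left oil replicate 2 or 3, right oil replicate 1, left EE replicate 2 or 3, any right EE sample). For PGR, GREB1 and ESR1 no difference between the sides passed the test (adjusted p = 0.696, 0.305 and 0.62). Other members of their list of 24 genes did differ, 1 with a higher EE effect on the right and 4 with a lower one, beside 11.2% of all genes. RERG and STC1 were among the 4, with differences of -1.18 ± 0.14 and -1.50 ± 0.29 (adjusted p = 7.25e-05 and 0.00294). Their log2 ratios on the left were -0.33 and -0.27.

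**Figure D5:**
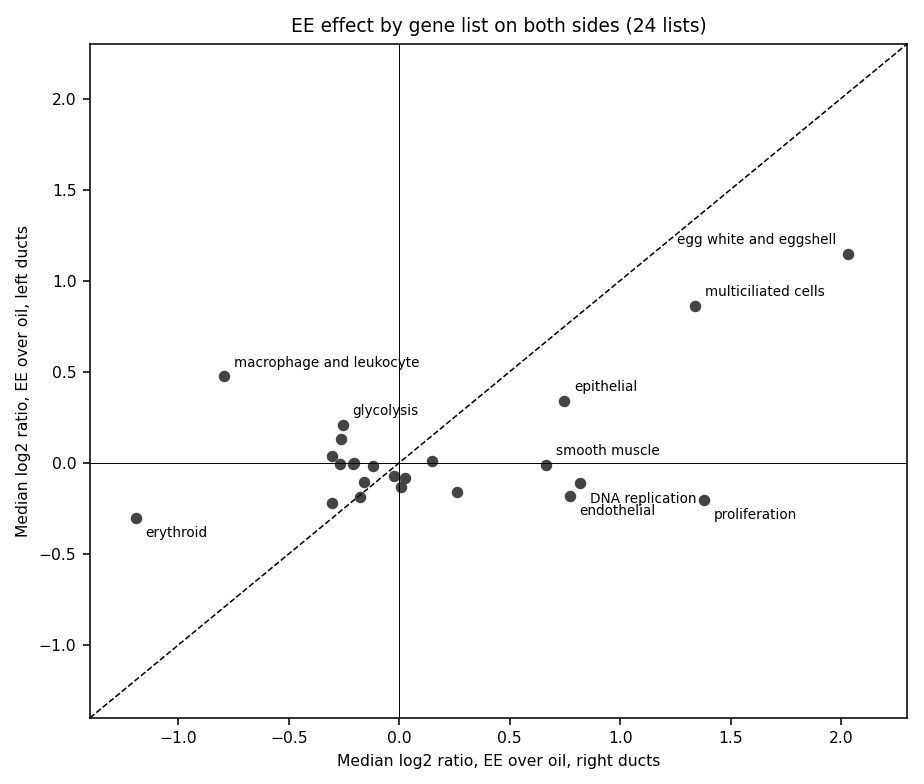
Log2 ratio of EE over oil in right ducts (horizontal axis) against that in left ducts (vertical axis) as the median over the tested members of each of 24 gene lists, with the diagonal of equal effects dashed. Proliferation lies at 1.38 (right) and -0.20 (left), and macrophage genes at -0.79 and 0.47, while multiciliated and egg white genes are above 0 on both axes.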

How the data were processed

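Poly(A) RNA from Müllerian ducts was sequenced, with 3 samples in each of 4 groups (oil or EE, left or right). The authors deposited 1 table with raw counts per gene, FPKM values and exonic gene sizes. The deposited FPKM values follow from the deposited counts, the gene sizes and the sum of counts, with a largest difference of 0.005. cutadapt 1.9.1, HISAT2 2.0.1, HTSeq 0.6.1 and DESeq2 1.6.3 are named in the submitters' processing notes without their roles. How strand was handled, and against which build and annotation reads were counted, is not given in the sources, so reads of overlapping or antisense genes and of near-identical copies may be shared. All 16013 genes have the start and end of the RefSeq table of the Coturnix japonica 2.1 assembly. Total counts per sample were 13303458 to 23621985.

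Genes with an FPKM of 1 or more in at least 3 of the 12 samples were tested with edgeR 4.0.16 (quasi-likelihood, TMM factors, 4 group means over 12 samples, R 4.3.3). Calls had a Benjamini-Hochberg adjusted p under 0.05, and the difference between the sides was the interaction contrast of the same fit. The SE of a log2 ratio was taken as its size divided by the square root of F. The smallest p of an exact permutation test of 3 against 3 is 0.1, so single genes rest on the fit across all genes. A gene with no count in 1 group was set against a floor of 3 counts in each library, and ratios against 1 to 3 counts have an exact 95% interval. Both cover counting error only.

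The genes named were the 12 highest and 12 lowest ratios, the 8 lowest p and the 6 largest rises and falls in mean CPM among called genes whose groups did not overlap, up to 5 members of each list by p, the 6 highest and 6 lowest differences between the sides, and a fixed set of hormone and duct genes. Some genes that this rule would name are not reported here. Other genes named in passing were chosen after their values were seen. The comparison and the lists were chosen with earlier results of these data known, and members without a symbol were matched by the table's product descriptions. Alternatives were DESeq2 1.42.0, limma 3.58.1 on log2(FPKM + 1) and log2(FPKM + 0.1), other scalings and filters, the replicate number as a block, each library left out, 3 libraries left out together, haemoglobin as a covariate or left out, and right ducts alone. A block of left and right ducts that share an exposure and a number was added after the data were seen.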

Additional observations from a re-analysis of the deposited data

Results flagged for a closer look

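The EE effect differed between right and left ducts in 1358 genes by the interaction term of the edgeR fit (adjusted p under 0.05). The 3 sets of genes described above stand in that group with their tested differences of log2 ratios, right minus left. The first holds genes with a lower effect on the right: FSHR at -4.91, the luteinising hormone receptor (LOC107310840) at -4.44, ZP1 at -3.55, VWC2L at -3.86, LRRTM1 at -3.37, KIT at -2.22 and MMP2 at -1.20. The second holds genes with a higher effect on the right: FAM183A at 6.46, CFAP52 at 5.44, CALB2 at 5.23, GDF6 at 4.02, TCF24 at 3.87, DMRT2 at 3.70 and MKI67 at 2.11. The last holds the muscle genes CACNG1 at -9.92 and TNNI2 at -3.98, where 1 right oil library held most of the muscle transcripts. FAM183A, CFAP52, CALB2 and CACNG1 had 0 to 3 reads in 1 group, so the size of their fitted difference depends on the prior count. Groups of 3 samples are too small for a test of single outlying samples, and none was made.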

How the results depend on the processing

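In right ducts 4122 genes were called, 2134 higher and 1988 lower. DESeq2 called 4412, scaling by RLE 4110, no filter 4116, a filter within groups 4112, filterByExpr 4211, a fit without haemoglobin genes 4135 and a fit of right ducts alone 3716. Limma on log2(FPKM + 1) gave 3440 higher and 1046 lower, on log2(FPKM + 0.1) 3473 and 1018, and library size scaling 3479 and 1113. None of these 3 uses TMM factors. With the haemoglobin share as a covariate the counts were 2497, 1335 higher and 1162 lower, and the cause of the drop was not tested. Leaving out 1 library gave 3244 to 4184 calls, and leaving out left oil 1, right oil 1 and right EE 1 together gave 3364. For the difference between the sides, 1358 genes were called (791 and 567). Genes with a lower effect on the right then numbered 292 and 279 with limma, and library size scaling gave 1208 and 309. Leaving out 1 library gave 1015 to 1467.

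Correlations of the deviations of same-numbered samples were -0.128, -0.149 and -0.00439 between right oil and right EE ducts and -0.0371, 0.105 and -0.0432 between left oil and left EE ducts. Between left and right ducts they were 0.0411, 0.12 and 0.136 with oil, where each sample correlated best with its own number, and -0.0364, 0.037 and 0.0875 with EE. Not every pair passed 0.1 in any of these, and the labels give no pairing, so the numbers were not taken to pair samples. With the replicate number as a block 4035 genes were called in right ducts and 1285 for the difference. A block of left and right ducts that share an exposure and a number, chosen after seeing the data, gave 1373 calls for the difference, 812 and 561, with CACNG1 no longer called (adjusted p = 0.0576). The uncalled AMH ratio came to 0.004754, 0.0008882 and 0.0202 with the limma fits and library size scaling, and that of AMHR2 to 0.3407 with the haemoglobin covariate. Leaving out 1 library, the ratio of ALB ranged from -1.51 to 5.648, of FGG from -0.9868 to 3.639 and of TF from -0.3109 to 2.623, each below 0 without EE replicate 1. Without the 3 libraries these ratios were -2.073, -1.297 and -0.4747. TF was also not called without oil replicate 1, 2 or 3 (adjusted p = 0.0881, 0.0813 and 0.0547) or with the replicate block (0.14). The luteinising hormone receptor (LOC107310840) was not called with limma on log2(FPKM + 0.1), library size scaling or the haemoglobin covariate (0.0735, 0.0557 and 0.258). Besides genes named so far, TDRD1 lost its call with the haemoglobin covariate (0.062) and AQP5 without the 3 libraries (0.0581). The difference between the sides was not called for CFAP52 with limma (0.584 and 0.0869), nor for FAM183A with the larger pseudocount (0.201), and without the 3 libraries it was lost for CALB2, CFAP52 and FAM183A (0.0734, 0.0599 and 0.0514). With library size scaling the lower genes of the BMP, Hedgehog and Notch lists numbered 5, 2 and 1. Depth limits genes with few reads in 1 group, whose ratios are bounds or intervals.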
